A study of Mus musculus with 4 samples.

Results

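The 9 genes described here encode the CD3 chains of the T cell receptor (Cd3d, Cd3e, Cd3g and Cd247) and the proteins that act directly on or beside them (Lck, Zap70, Lat, Trat1 and Ubash3a). They were chosen by gene symbol from a table of 17454 genes, and each had a single row. RNA had been sequenced from T cells lacking CD4 and CD8, taken from livers of adult C57BL/6 mice, from 2 libraries of a methionine-choline deficient diet and 2 libraries of a normal diet. The deficient diet is widely used to produce fatty, inflamed liver in mice. Cells of both diets had been sorted by flow cytometry as live CD45-positive, CD3-positive cells negative for NK1.1, CD4 and CD8. The labels name no transgene or other treatment, and do not state whether replicate libraries represent different mice, so p-values here cover the variation among the 4 libraries, which may be technical.

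The T cell receptor itself has almost no signaling tail, and its signal passes through the CD3 chains, which carry tyrosine motifs called ITAMs. After the receptor binds its ligand, the kinase Lck phosphorylates the ITAM tyrosines, the kinase Zap70 docks on them, and Zap70 phosphorylates the membrane adaptor Lat, on which further signaling proteins gather. Trat1, also called TRIM, is a small membrane adaptor that associates with the receptor complex, and Ubash3a, also called Sts-2, dampens receptor signaling. In the mouse, gamma-delta receptors at the cell surface largely lack the delta chain encoded by Cd3d.

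The ITAM-coding stretches show what the 4 CD3 genes share and how they differ in the number and bases of these motifs. They were read 5′ to 3′ from the coding strand of GENCODE vM21 transcripts, and the capitals mark the codons of the paired tyrosines.
Cd3d: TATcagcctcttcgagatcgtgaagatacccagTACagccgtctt
Cd3e: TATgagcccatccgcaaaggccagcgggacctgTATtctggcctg
Cd3g: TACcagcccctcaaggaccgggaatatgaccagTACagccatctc
Cd247, ITAM 1: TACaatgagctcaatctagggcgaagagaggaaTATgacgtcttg
Cd247, ITAM 2: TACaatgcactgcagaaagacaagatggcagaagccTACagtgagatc
Cd247, ITAM 3: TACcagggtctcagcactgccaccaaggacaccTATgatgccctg
Cd3d, Cd3e and Cd3g each held 1 such motif and Cd247, the zeta chain, held 3. The Cd3d and Cd3g stretches were the closest pair of equal length among these 6, with 32 of 45 bases identical, against 21 of 45 for Cd3d and Cd3e. Lck, Zap70, Lat, Trat1 and Ubash3a held none.

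On the deficient diet, Ubash3a fell and was the only member to pass the test. Trat1 stood at about the same lower level but missed the threshold narrowly. Cd3e and Lat were at higher levels on the deficient diet, and the other CD3 chains, Lck and Zap70 at slightly to moderately lower levels, none of them past the threshold. Levels were taken as FPKM, which the table does not name as its unit, that is fragment numbers scaled for transcript length and library size, so that genes can be compared with each other per length. Changes were tested with limma on log2(FPKM + 1), deficient minus normal diet, and adjusted with Benjamini-Hochberg over the 10423 genes that reached 1 FPKM in 2 or more libraries. All 9 members passed that filter, and 1 of 9 was called lower and 0 higher at an adjusted p of 0.05. Over all tested genes 1.53% were called lower and 1.22% higher, and 2.74% were called in either direction. At an unadjusted p under 0.05 the members were 4 of 9, namely Ubash3a, Trat1, Lat and Lck, beside 22.8% of tested genes.

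For all 9 members the libraries of the diets did not overlap, with 7 lower and 2 higher on the deficient diet. The same held for 56.2% of tested genes, 25.5% lower and 30.7% higher. The median log2 change of the members was -0.40, against 0.04 over all tested genes. Since these are bulk samples, fewer cells of a type and less RNA per cell cannot be told apart.

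**Figure D1:**
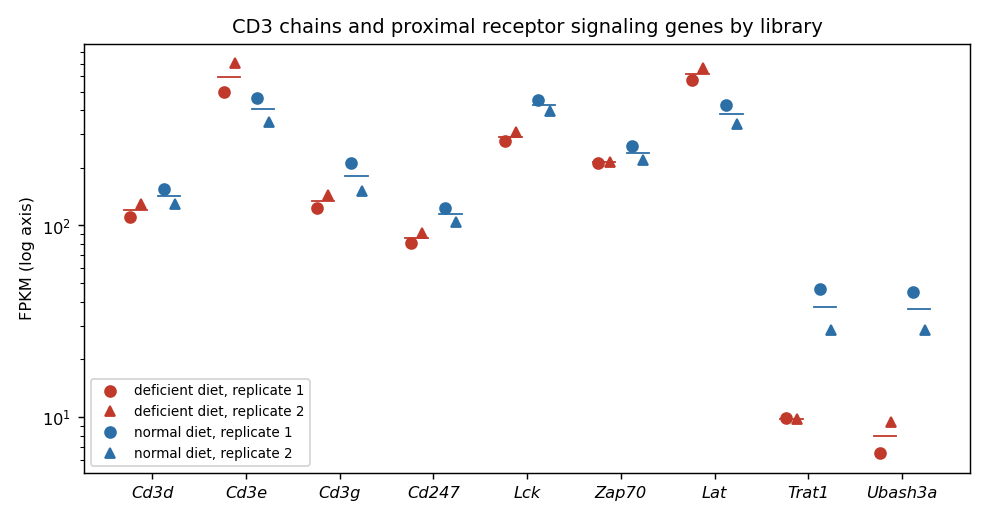
FPKM of the 9 genes on a log axis, with the 2 deficient diet libraries in red and the 2 normal diet libraries in blue; bars mark the mean of a diet. Trat1 and Ubash3a lie below 10 FPKM in the deficient diet libraries and above 28 FPKM in the normal diet libraries, while the other members stay above 80 FPKM throughout.

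Among the CD3 chains, Cd3e, which pairs with both the delta and the gamma chain, had 496.1 and 700.3 FPKM in the deficient diet libraries and 460.0 and 348.3 FPKM in the normal diet libraries. Its lowest deficient diet library was only slightly above its highest normal diet library, and the limma log2 change was 0.56 ± 0.24 (SE) with an adjusted p of 0.263. Cd3g, the gamma chain, had 123.7 and 143.7 FPKM on the deficient diet and 211.9 and 151.4 FPKM on the normal diet. The limma log2 change of Cd3g was -0.42 ± 0.21 (SE) with an adjusted p of 0.318. Cd3d, the delta chain, stood at 110.7 and 128.8 FPKM on the deficient diet and at 154.9 and 128.9 FPKM on the normal diet. Deficient diet replicate 2 and normal diet replicate 2 thus had nearly the same Cd3d level, and the adjusted p was 0.455. Cd247, the zeta chain, had 80.6 and 91.1 FPKM on the deficient diet and 124.0 and 104.3 FPKM on the normal diet, a limma log2 change of -0.40 ± 0.16 (SE) with an adjusted p of 0.230.

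The 95% interval of the log2 change ran from -0.07 to 1.19 for Cd3e, from -0.97 to 0.13 for Cd3g, from -0.67 to 0.19 for Cd3d and from -0.82 to 0.01 for Cd247. Changes of up to about 1 log2 unit in these directions therefore lie within the intervals of Cd3e and Cd3g. In the GENCODE vM21 annotation, 3007 of the 5329 exonic bases of Cd247 are shared with the gene Pou2f1 on the opposite strand. Without strand information reads there cannot be assigned with certainty. Pou2f1 was listed at 2.33 and 2.70 FPKM on the deficient diet and 1.79 and 1.62 FPKM on the normal diet, far below Cd247. These values depend on the same assignment of reads, so they cannot show how shared reads were divided. Cd3e shares 135 of 4080 exonic bases with the antisense gene Gm48719.

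Of the kinases, Lck had 274.3 and 306.3 FPKM in the deficient diet libraries and 453.3 and 396.9 FPKM in the normal diet libraries. Both deficient diet libraries lay well below both normal diet libraries, and the limma log2 change of Lck was -0.55 ± 0.15 (SE) with an adjusted p of 0.129. Zap70 stood at 211.8 and 215.3 FPKM on the deficient diet and at 259.2 and 219.6 FPKM on the normal diet. Normal diet replicate 2 lay just above both deficient diet libraries, and the Zap70 log2 change of -0.16 had a 95% interval from -0.54 to 0.22 and an adjusted p of 0.576 in limma.

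The membrane adaptor Lat had 571.9 and 662.0 FPKM on the deficient diet and 426.5 and 338.9 FPKM on the normal diet. Its limma log2 change was 0.69 ± 0.18 (SE) with a 95% interval from 0.22 to 1.16 and an adjusted p of 0.117. Trat1, the other membrane adaptor among the members, stood at 9.90 and 9.73 FPKM on the deficient diet and at 46.7 and 28.5 FPKM on the normal diet. The deficient diet libraries of Trat1 were nearly equal, and the mean was 9.81 ± 0.118 FPKM on the deficient diet and 37.6 ± 12.9 FPKM on the normal diet (SD, n = 2 each). The limma log2 change of Trat1 was -1.79 ± 0.27 (SE) with an adjusted p of 0.0502.

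Ubash3a fell to 6.47 and 9.47 FPKM on the deficient diet, against 45.2 and 28.4 FPKM on the normal diet, and all deficient values lay far below all normal ones. Its mean was 7.97 ± 2.13 FPKM on the deficient diet and 36.8 ± 11.9 FPKM on the normal diet (SD, n = 2 each), a limma log2 change of -2.06 ± 0.31 (SE) with an adjusted p of 0.0487. By p among the 10423 tested genes Ubash3a ranked 274 and Trat1 ranked 288, on either side of the limit at 286 called genes. The Ubash3a call did not hold without normal diet replicate 1 (adjusted p = 0.123), without deficient diet replicate 1 (0.135) or without deficient diet replicate 2 (0.245) in limma, and Ubash3a passed in 6 of 14 alternatives, with a log2 change between -2.38 and -1.67. Trat1 passed in 3 of 14, which were a higher filter of 5 FPKM (adjusted p = 0.0441), quantile normalization (0.0373) and leaving out normal diet replicate 2 (0.0258), and its log2 change ran from -2.14 to -1.45.

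By mean level in the deficient diet libraries the order was Lat, Cd3e, Lck, Zap70, Cd3g, Cd3d, Cd247, Trat1 and Ubash3a. In the normal diet libraries it was Lck, Cd3e, Lat, Zap70, Cd3g, Cd3d, Cd247, Trat1 and Ubash3a. Neighbours whose libraries overlapped were Lat with Cd3e and Cd3g with Cd3d on the deficient diet. On the normal diet they were Lck with Cd3e, Cd3e with Lat, Cd3g with Cd3d, and Trat1 with Ubash3a. Compared within a library, Cd3g stood above Cd3d and Trat1 above Ubash3a in every library, and Cd3e above Lat in both normal diet libraries. The order of Lat and Cd3e differed between the deficient diet libraries, and that of Lck and Cd3e between the normal diet libraries. Lat, at the top on the deficient diet, was reached or exceeded by 0.395% and 0.355% of all rows there and by 0.653% and 0.796% on the normal diet. For Ubash3a the share of rows at or above its level was 36.2% and 29.7% on the deficient diet and 9.20% and 14.2% on the normal diet.

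Dividing each level by that of Cd3e in the same library gives the members per unit of a receptor chain. The ratio of Cd3g to Cd3e was 0.249 and 0.205 on the deficient diet and 0.461 and 0.435 on the normal diet. That of Cd3d was 0.223 and 0.184 on the deficient diet and 0.337 and 0.370 on the normal diet, and that of Cd247 was 0.162 and 0.130 against 0.270 and 0.299 on the normal diet. Every chain was thus lower relative to Cd3e in both deficient diet libraries than in both normal diet libraries.

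Lck relative to Cd3e stood at 0.553 and 0.437 on the deficient diet and at 0.986 and 1.14 on the normal diet. Zap70 had 0.427 and 0.307 on the deficient diet and 0.563 and 0.630 on the normal diet. Lat was the exception, with 1.15 and 0.945 on the deficient diet and 0.927 and 0.973 on the normal diet, ranges that overlap. Ubash3a relative to Cd3e was 0.0130 and 0.0135 on the deficient diet, libraries that nearly coincide, and 0.0982 and 0.0814 on the normal diet. In all, 7 of 8 members were lower relative to Cd3e with no overlap and 0 higher, where 48.3% of tested genes were lower and 6.4% higher in the same way. Any difference in Cd3e, which did not pass the test, enters all of these ratios. With the geometric mean of Cd3d, Cd3e and Cd3g as the divisor, 6 of 9 members were lower without overlap. Of the others 2 (Cd3e and Lat) were higher and Zap70 overlapped, beside 19.2% lower and 27.1% higher among tested genes. Cd3d, Cd3e and Cd3g make up that divisor, so their log2 ratios cancel in every library. With Cd3e higher, the lower ratios of Cd3d and Cd3g are partly fixed, and the count cannot be compared freely with those shares. With 2 libraries per diet an exact two-sided permutation test of such a ratio cannot give a p below 0.333, so none was used.

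**Figure D2:**
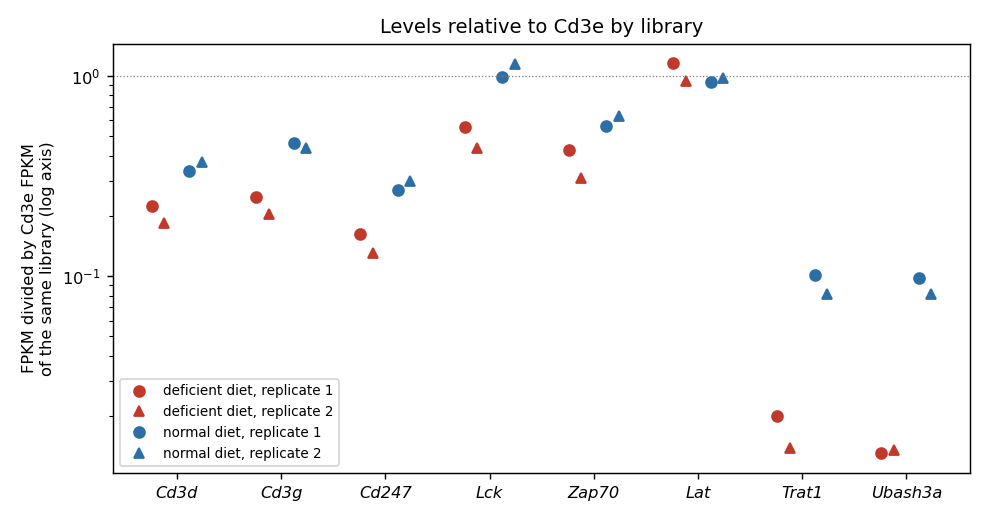
FPKM of 8 members divided by the Cd3e FPKM of the same library, on a log axis, with deficient diet libraries in red and normal diet libraries in blue. Every member but Lat has both red points below both blue points, and the gap is widest for Ubash3a, at 0.0130 and 0.0135 against 0.0982 and 0.0814.

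Pairs of related genes were set side by side, chosen after their values were seen. Cd3g and Cd3d, whose ITAM stretches were the closest above, had a ratio of 1.117 and 1.116 on the deficient diet and 1.37 and 1.17 on the normal diet. Ubash3b, also called Sts-1, is the close relative of Ubash3a and has the same dampening role. It had 16.5 and 27.3 FPKM on the deficient diet and 11.98 and 16.5 FPKM on the normal diet, with an adjusted p of 0.355 in limma. The ratio of Ubash3a to Ubash3b was 0.392 and 0.347 on the deficient diet and 3.77 and 1.72 on the normal diet, so that Ubash3b was the more abundant of the pair in both deficient diet libraries and Ubash3a in both normal diet libraries. Fyn is another Src family kinase that phosphorylates ITAMs in T cells. The ratio of Lck to Fyn was 32.0 and 55.6 on the deficient diet and 6.06 and 8.24 on the normal diet. Lat exceeded Trat1 by a ratio of 57.8 and 68.0 on the deficient diet and 9.14 and 11.9 on the normal diet.

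Across the 4 libraries, the listed gene with the profile closest to Ubash3a was Trat1, and the closest to Trat1 was Ubash3a. Likeness was measured as the Euclidean distance between log2(FPKM + 1) profiles centred on their own mean, among members and the other signaling genes listed here, and this distance was 0.45 log2 units. For both genes the next closest was Dgka, a diacylglycerol kinase that limits receptor signaling, at 0.80 from Ubash3a and 0.56 from Trat1. Cd3d lay closest to Lcp2, the adaptor SLP-76 (0.02), Cd247 to Cd5 (0.11) and Zap70 to Nfatc1 (0.07). Lck lay closest to Cd247 (0.15), Lat to Thy1 (0.14) and Cd3e to Lax1, a membrane adaptor related to Lat (0.17).

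Promoter windows are printed for Ubash3a and Trat1, each of which had the listed profile closest to the other. They are also printed for Cd3e and Lat, the members at higher levels on the deficient diet. Each window holds 250 bases before and 50 after the start of a transcript in RefSeq, build GRCm38.p6, written 5′ to 3′ on the strand of the gene. The deposited table carries no coordinates, so these windows locate the genes and are not tied to its mm8 build. Capitals mark matches on either strand to TGTGGT for RUNX factors, to AGATAA for GATA factors, to CACCTG for an E-box, to CTTTGA for TCF factors and to AGGAAG for ETS factors, and no matches overlap in the windows shown.
Ubash3a, chr17:31207816-31208115, plus strand: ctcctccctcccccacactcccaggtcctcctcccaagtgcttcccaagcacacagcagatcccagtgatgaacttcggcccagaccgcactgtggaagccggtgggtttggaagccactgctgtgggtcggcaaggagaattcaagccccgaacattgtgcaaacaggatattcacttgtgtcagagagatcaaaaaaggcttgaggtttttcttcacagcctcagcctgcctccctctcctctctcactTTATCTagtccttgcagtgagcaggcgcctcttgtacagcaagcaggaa
Trat1, chr16:48772013-48772312, minus strand: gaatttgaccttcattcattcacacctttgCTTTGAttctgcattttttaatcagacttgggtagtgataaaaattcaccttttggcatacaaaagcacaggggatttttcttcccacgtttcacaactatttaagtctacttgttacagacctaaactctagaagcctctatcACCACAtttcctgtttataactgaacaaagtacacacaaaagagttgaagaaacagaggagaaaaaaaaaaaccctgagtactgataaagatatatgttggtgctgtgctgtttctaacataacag
Cd3e, chr9:45009562-45009861, minus strand: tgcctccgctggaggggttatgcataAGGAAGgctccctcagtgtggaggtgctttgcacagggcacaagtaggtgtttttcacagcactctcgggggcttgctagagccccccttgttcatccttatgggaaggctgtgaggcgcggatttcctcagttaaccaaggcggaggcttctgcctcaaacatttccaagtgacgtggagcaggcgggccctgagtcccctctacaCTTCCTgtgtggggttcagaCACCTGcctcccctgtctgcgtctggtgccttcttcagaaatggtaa
Lat, chr7:126369519-126369818, minus strand: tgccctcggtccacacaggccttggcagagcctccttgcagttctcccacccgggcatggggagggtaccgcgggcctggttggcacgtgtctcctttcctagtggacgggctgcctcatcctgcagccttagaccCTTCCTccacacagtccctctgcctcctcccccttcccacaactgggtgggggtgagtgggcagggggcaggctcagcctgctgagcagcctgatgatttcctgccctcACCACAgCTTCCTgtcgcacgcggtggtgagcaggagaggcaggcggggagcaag
Ubash3a held 1 match, to the GATA letters, and Trat1 held 2, to the TCF and RUNX letters. Cd3e held 1 E-box and 2 ETS matches, and Lat 1 RUNX and 2 ETS matches. Over the 12 windows of the 9 members, an E-box was found in 8, ETS letters in 8, RUNX letters in 4, TCF letters in 4 and GATA letters in 2. Lck and Zap70 each had more than 1 window, so these are counts of windows and not of genes. Among all 32851 windows the shares were 20.2% for the E-box, 35.4% for ETS, 16.8% for RUNX and 11.2% for GATA, and TCF letters were in 5257 windows. Ubash3a and Trat1 shared none of the 5 motifs as spelled here. Only a single spelling per factor was searched, so sites spelled otherwise were not counted and may be shared.

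Of 72 other genes of receptor signaling listed by role, 65 were in the table and all 65 were tested. Among them 1 fell (Fyn) and 1 rose (Sit1), a share close to the 2.74% called over all tested genes, and their median log2 change was -0.26. Deficient diet libraries lay below normal diet libraries without overlap for 31 of 65, beside 25.5% of tested genes, and above for 8 of 65, beside 30.7%. The 7 listed receptor chain genes (constant regions and the pre-receptor alpha chain) had no row under the symbols searched and could not be analysed here.

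Among 11 kinases and phosphatases 1 fell and none rose. The list leaves out the kinase Blk, counted below among the gamma-delta type 17 markers. With all libraries Blk was called higher (adjusted p = 0.0405 in limma). Its levels were 206.2 and 264.8 FPKM on the deficient diet and 28.8 and 53.9 FPKM on the normal diet. Fyn fell to 8.58 and 5.51 FPKM on the deficient diet, against 74.8 and 48.2 FPKM on the normal diet, 8.73-fold lower by mean, with a limma log2 change of -2.95 ± 0.31 (SE) and an adjusted p of 0.0325. It did not pass without normal diet replicate 1 (adjusted p = 0.0822), deficient diet replicate 1 (0.0855) or deficient diet replicate 2 (0.231). Ptpn6, the phosphatase SHP-1, had 102.7 and 80.0 FPKM on the deficient diet and 164.4 and 181.9 FPKM on the normal diet (adjusted p = 0.0691 in limma). Txk, a Tec family kinase, had a log2 change of -0.97 and did not pass, nor did the receptor phosphatase Ptprj at 1.73 and 0.865 FPKM on the deficient diet and 4.40 and 4.74 FPKM on the normal diet.

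Among 13 adaptors 1 rose and none fell. Sit1, a membrane adaptor that inhibits receptor signaling, rose to 212.5 and 242.3 FPKM on the deficient diet, against 105.0 and 100.5 FPKM on the normal diet. Its limma log2 change was 1.14 ± 0.14 (SE) with an adjusted p of 0.0392, and it did not pass with any of the 4 libraries left out (adjusted p between 0.0667 and 0.245) or when libraries were scaled by Cd3d, Cd3e and Cd3g (0.0814). Grb2, a cytosolic adaptor that binds Lat, had 35.1 and 13.6 FPKM on the deficient diet and 148.0 and 126.7 FPKM on the normal diet and missed the threshold (adjusted p = 0.0573 in limma). Themis and Grap2, the adaptor GADS that also binds Lat, had log2 changes of -0.88 and 0.60 and did not pass.

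None of 15 effectors passed over all genes tested in limma. Prkcq, the kinase protein kinase C theta, had 39.3 and 40.6 FPKM on the deficient diet and 58.4 and 65.1 FPKM on the normal diet (adjusted p = 0.0998). Itpkb had a log2 change of -0.58, and Ppp3ca, a calcineurin subunit, and Orai1, a calcium channel, had log2 changes of -0.76 and -0.54 that rested on deficient diet replicate 2. Without that library they were 0.07 and 0.32. None of 13 negative regulators passed either. Dgka had 21.6 and 25.4 FPKM on the deficient diet and 68.2 and 50.5 FPKM on the normal diet (adjusted p = 0.0540 in limma), and Dok2, an adaptor that restrains signaling, 101.2 and 115.6 FPKM against 205.4 and 189.7 FPKM on the normal diet (0.0547). Dgkz had a log2 change of -0.91 and Rnf128, a ubiquitin ligase, of -1.50, without passing. Dgka passed in 3 of 14 alternatives, among them leaving out normal diet replicate 2 (adjusted p = 0.0445 in limma).

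None of 6 coreceptors and accessory receptors passed. Thy1 had 178.1 and 192.7 FPKM on the deficient diet and 132.1 and 112.9 FPKM on the normal diet (adjusted p = 0.110 in limma). The genes of the coreceptors that the sort selected against were detected in every library. Cd8a stood at 0.836 and 1.42 FPKM on the deficient diet and 22.4 and 8.26 FPKM on the normal diet, and Cd4 at 0.618 and 2.44 FPKM against 3.86 and 4.11 FPKM on the normal diet. Cd8a missed the threshold (adjusted p = 0.0604 in limma) and passed without normal diet replicate 2 (0.0226) and when scaled by the 3 CD3 genes (0.0398). Cd8b1 had 13.4 and 14.0 FPKM on the deficient diet, above Ubash3a and Trat1 there, and 25.2 and 19.3 FPKM on the normal diet, a log2 change of -0.65 that did not pass. None of 7 other ITAM signaling genes passed. Fcer1g, whose product can take the place of the zeta chain in some mouse T cell receptors, had 26.6 and 22.3 FPKM on the deficient diet and 21.7 and 53.2 FPKM on the normal diet. Cd79a, Cd79b and Syk, which serve the B cell receptor, had log2 changes of -1.27, 0.23 and 0.20.

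**Figure D3:**
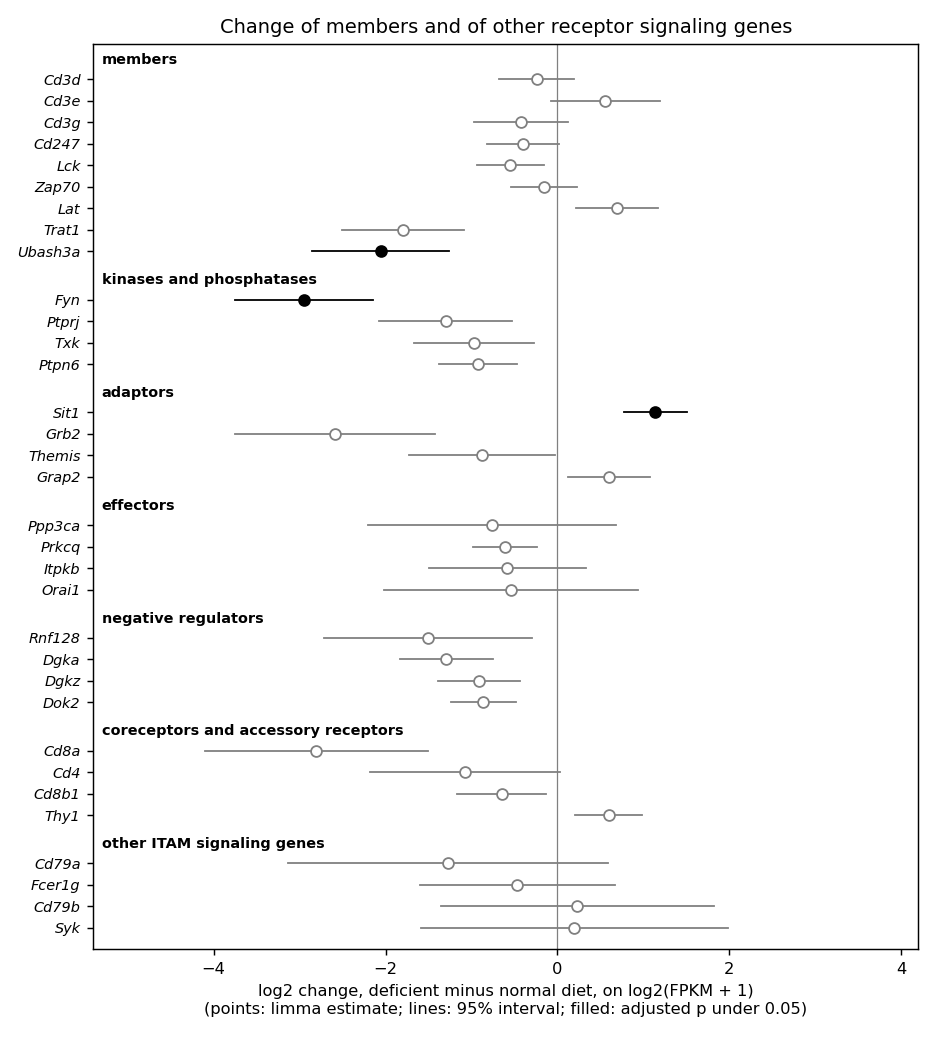
Log2 change, deficient minus normal diet, of the 9 members and of up to 4 other receptor signaling genes per list, as limma estimates with 95% intervals on the log2(FPKM + 1) scale. Filled points passed an adjusted p of 0.05, and these are Ubash3a (-2.06), Fyn (-2.95) and Sit1 (1.14).

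Libraries of the same diet differed in the members and in markers of other cell types. All 9 members were higher in normal diet replicate 1 than in normal diet replicate 2, as were 49.2% of tested genes, and 8 of 9 (all but Trat1) were higher in deficient diet replicate 2 than in deficient diet replicate 1, as were 51.5% of tested genes. Summed over the 9 members the level was 1885 and 2267 FPKM on the deficient diet and 2181 and 1745 FPKM on the normal diet. The sum of 9 macrophage markers, led by Lyz2 and C1qa, was 1319 and 706.6 FPKM on the deficient diet and 144.7 and 2090 FPKM on the normal diet. The sum of 6 sinusoidal endothelium markers, led by Clec4g and Fcgr2b, was 269.2 and 72.4 FPKM on the deficient diet and 47.4 and 512.2 FPKM on the normal diet. In each diet the library with the higher of these 2 sums had the lower sum of the members, with 2 libraries per diet. Clec4f, a marker of liver macrophages, was listed at 0 in normal diet replicate 1.

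Neutrophil markers (6, led by S100a8 and S100a9) summed to 268.2 and 294.9 FPKM on the deficient diet and 61.6 and 744.1 FPKM on the normal diet, so that within the deficient diet they were higher in the library with the higher sum of the members. Hepatocyte markers (7, led by Apoa1 and Alb) summed to 61.7 and 34.7 FPKM against 17.5 and 140.0 FPKM on the normal diet. B cell markers (7, with Cd79b and Ms4a1) summed to 45.0 and 36.7 FPKM against 28.3 and 112.2 FPKM on the normal diet, and dendritic cell markers (5, with Siglech and Itgax) to 14.1 and 10.6 FPKM against 6.24 and 14.3 FPKM on the normal diet. Mpo and Elane of the neutrophil list were listed at 0 in deficient diet replicate 1, and of the hepatocyte list Fabp1 was at 0 in deficient diet replicate 2 and Ttr in normal diet replicate 1. No tested gene of these 6 lists was called with all libraries. Normal diet replicate 2 had the highest sums of these 6 lists. Without it, 2 macrophage, 2 neutrophil and 1 hepatocyte marker were called higher on the deficient diet, and Ubash3a had an adjusted p of 0.0322 in limma.

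Other markers differed between the diets. Natural killer cells also express Cd247, Lck, Zap70 and Lat, and the sort for CD3-positive, NK1.1-negative cells selected against them. Their markers summed to 127.3 and 108.4 FPKM on the deficient diet and 510.5 and 437.4 FPKM on the normal diet (8 genes, led by Klrd1 and Klrk1), with 2 of 7 tested called lower (Klre1 and Klrd1). That count was 0 without normal diet replicate 1, deficient diet replicate 1 or deficient diet replicate 2, while omitting normal diet replicate 2 gave 3. Tyrobp, at 2.29 and 2.30 FPKM on the deficient diet and 0.772 and 3.87 FPKM on the normal diet, and Fcer1g overlapped between the diets. Ncr1, a defining marker of these cells, was listed at 0.173 and 0 FPKM on the deficient diet and at 0.898 and 3.39 FPKM on the normal diet. Markers of conventional CD4 and CD8 cells (3, led by Cd8b1 and Cd8a) summed to 14.8 and 17.8 FPKM against 51.4 and 31.6 FPKM on the normal diet, with none called with all libraries. Gamma-delta type 17 markers (10, led by Il17a and Blk) summed to 1196 and 1239 FPKM on the deficient diet and 173.3 and 325.7 FPKM on the normal diet, and 6 of 10 were called higher. That count was 0 without normal diet replicate 1, deficient diet replicate 1 or deficient diet replicate 2, 0 without a filter and with the replicate block, 3 with a pseudocount of 0.1 or CD3 scaling, and 1 without the trend. Pancreatic acinar markers (5, with Cela2a and Ctrb1) summed to 613.6 and 226.4 FPKM against 7713 and 2306 FPKM on the normal diet, with 1 called lower, which became 4 on omitting normal diet replicate 2 and 0 on omitting any other library. General T cell markers (9, led by Cd2 and Tcf7), which fit the label of the sorted cells, summed to 1389 and 1290 FPKM on the deficient diet and 1604 and 1378 FPKM on the normal diet, with none called. Several T cell markers, among them Cd2, Cd5, Cd6, Cd28 and Thy1, and the natural killer cell markers Fcer1g and Tyrobp also stand in the signaling lists above. The part of these cell types in the differences of the members was not tested.

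**Figure D4:**
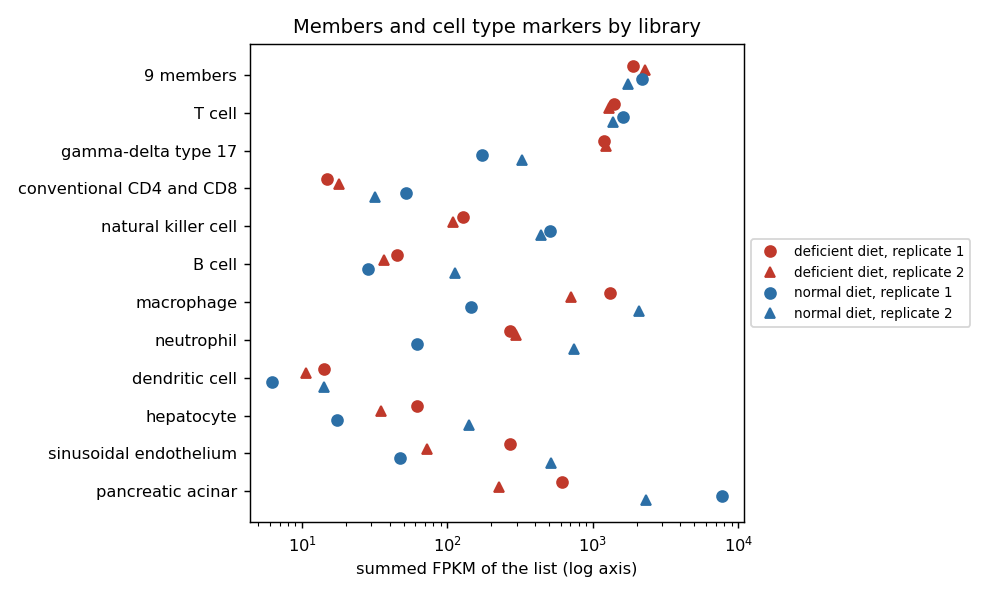
Summed FPKM of the 9 members and of each cell type marker list, on a log axis, with deficient diet libraries in red and normal diet libraries in blue. The members lie between 1745 and 2267 FPKM in every library, while macrophage markers range from 144.7 to 2090 FPKM within the normal diet alone.

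Other processing settings moved the sizes of the changes. Over 14 alternative settings per member no member changed sign, and 7 members passed under none of them. Lat came closest of these 7, with an adjusted p of 0.0537 in limma after quantile normalization, and its adjusted p ran up to 0.415. Since the libraries of the diets did not overlap for any member, leaving out a library could not turn a sign.

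**Figure D5:**
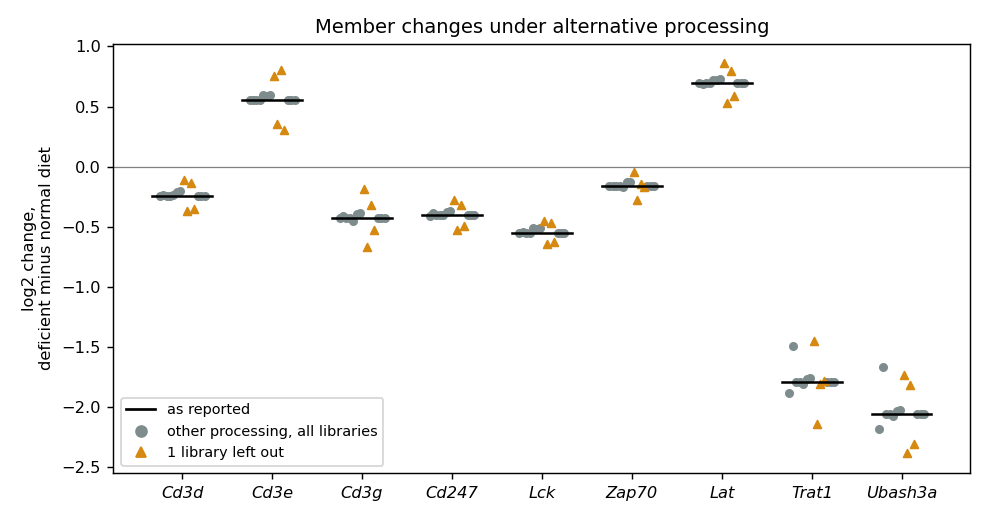
Log2 change of each member, deficient minus normal diet, as reported (black bars), under other processing of all libraries (grey points) and with 1 library left out (orange triangles). Lat ranges from 0.53 to 0.86 and Ubash3a from -2.38 to -1.67, and no member crosses 0.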

How the data were processed

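The submitters' processing notes name Bowtie 0.12.2 and the genome build mm8. Not given in the sources used here are the quantifier, the annotation and any filter. The deposited values were taken as FPKM from their range, since neither the table nor the labels name the unit. Trizol extraction and TruSeq library preparation are stated in the labels' protocols. No read counts are among the deposited values, so the depth is unknown. They summed to 373642 and 384322 on the deficient diet and 389403 and 370112 on the normal diet.

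Columns were matched to samples by title and grouped by diet. Values were analysed as log2(FPKM + 1) with limma 3.58.1 in R 4.3.3, using a mean-variance trend, diet as the only factor, and 2 residual plus 2.84 prior degrees of freedom. The pseudocount of 1 understates changes of low genes. The fit was also run on simulated data in which each gene drew a new spread for each library. That run cannot show how calls near the threshold behave in these data. Named pathway genes were up to 4 per list, called ones first and then by size of change, and marker genes were the 2 most abundant per list. Klre1, Clec4f, Ncr1, Tyrobp, the markers listed at 0, Ubash3b, Blk as a kinase and the gene pairs were picked with their values in view. The members and lists were chosen with earlier results of these data known. The profile closest to Cd3g is not reported here. No gene has a coordinate in the deposited table.

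Other settings tried were a pseudocount of 0.1 or 5, a filter of 5 FPKM or none, quantile normalization, median centring, scaling by Cd3d, Cd3e and Cd3g, omitting single libraries, a block for replicate number, no mean-variance trend and, for ratios, the geometric mean of the 3 CD3 genes. A crossed block was added after seeing the data.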

Additional observations from a re-analysis of the deposited data

How the results depend on the processing

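With 286 genes called in all, limma called 0 without a filter on low values (2712 at an unadjusted p under 0.05), 467 after quantile normalization, 138 when scaled by Cd3d, Cd3e and Cd3g, and 141 without the trend. With each library left out the count ran from 0 to 352. The 1 member called lower became 0 with a pseudocount of 0.1, without a filter and without the trend, and 2 (Ubash3a and Trat1) with a filter of 5 FPKM and after quantile normalization; with each library left out it ran from 0 to 2. The count of 0 members called higher was 0 in every alternative. Of the other signaling genes, the 1 called higher became 0 without a filter, when scaled by the 3 CD3 genes, without the trend and in each run that left out a library (0 to 0). The 1 called lower became 0 without a filter, 3 with a filter of 5 FPKM, 4 after quantile normalization and 2 when scaled by the 3 CD3 genes, and ran from 0 to 3 with each library left out. Signs turned for genes not called only. With each library left out the log2 change ran from -1.59 to 0.0712 for Ppp3ca, from -1.40 to 0.32 for Orai1, from -1.10 to 0.16 for Fcer1g, from -0.66 to 1.12 for Cd79b and from -0.81 to 1.21 for Syk. The cause was not tested. When a library is left out, the remaining library of its diet is assumed to vary like those of the other diet.

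The labels state no pairing of libraries, so the replicate numbers were not taken as pairs. Same-numbered libraries deviated in opposite ways from their diet means (correlation across genes -0.284). With 2 libraries per diet the crossed pairing has the same correlation with the sign turned, so this value cannot decide whether libraries were paired. With the replicate number as a block limma called 0 genes, 0 members and 0 other signaling genes, with 1844 genes at an unadjusted p under 0.05. With the crossed pairing as a block it called 52 genes, 0 members and 0 other signaling genes.

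Relative to Cd3e the log2 ratio, deficient minus normal diet, was -0.80 for Cd3d, -0.98 for Cd3g, -0.97 for Cd247, -1.11 for Lck, -0.72 for Zap70, 0.14 for Lat, -2.45 for Trat1 and -2.75 for Ubash3a. Relative to the geometric mean of Cd3d, Cd3e and Cd3g it was -0.21, -0.39, -0.37, -0.51, -0.12, 0.73, -1.86 and -2.16 in the same order of genes. In this divisor Cd3e has a smaller weight, and Cd3d and Cd3g are themselves part of it.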
